A study of Mus musculus with 8 samples.

Results

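Neural stem cells titled miPS-NSC were compared with mouse embryonic fibroblasts (MEF) on gene expression arrays, and the distance was set against that of 2 other neural stem cell (NSC) groups. The comparison was defined by the labels: the 2 arrays of miPS-NSC and the 2 arrays of MEF were taken, 4 of the 8 arrays of the study, and 8107 named genes were tested on them. Illumina BeadChips were used, on which beads that carry a probe fluoresce with the RNA bound to it. The groups were miPS-NSC (genotype OG2+/-, sample name pips-NSC P8), parthenogenetic NSC (pNSC, OG2+/-, P18), female NSC (fNSC, OG2ROSA, P27) and MEF, with 2 arrays each. MEF was labelled OG2+/-, although the column names of the signal table say OG2ROSA1. All 4 groups carry OG2 in their genotype, all are labelled female, and all list the same NSC expansion medium, MEF included. The name miPS-NSC is read here, with the series title, as NSCs derived from induced pluripotent stem (iPS) cells, that is, from body cells returned to a pluripotent state. The labels do not say which cells were reprogrammed or how many lines or cultures each group stands for. Nor do they explain the prefix pips, the P numbers or the title ending of 1 array in each group. Parthenogenetic cells arise from unfertilised eggs and hold 2 maternal genome copies.

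Neural stem cells divide in culture and can give rise to neurons, astrocytes and oligodendrocytes. They are held in that state by SOX transcription factors and by Notch signalling through HES repressors. Fibroblasts are mesenchymal cells that build connective tissue: they secrete collagens and other matrix proteins, crosslink them, and pull on them with an actin and myosin apparatus. During reprogramming to iPS cells, fibroblasts lose these mesenchymal genes, and differentiation to NSCs then starts from the pluripotent state.

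Per array, 10553 to 10902 of 25697 probes were detected at a detection p under 0.01, and Pearson's r between the 2 arrays of a group was 0.99337 to 0.99766 across genes. The labels do not state separate cultures for the arrays of 1 group, so the p-values reflect array-to-array spread alone, possibly technical, and the small number of arrays limits the precision. The MEF arrays went against their sex label. Xist, a non-coding RNA expressed from the silenced X chromosome in female cells, stood at 5.23 and 4.99 on the miPS-NSC arrays and 5.31 and 5.18 on the MEF arrays, below background on all 4, against 8.34 and 8.17 in pNSC and 8.17 and 8.13 in fNSC (normalized log2 intensity, the scale of every level given here). The Y-linked gene Uty stood at 5.78 and 5.13 on the miPS-NSC arrays, where it was not detected, against 7.54 and 7.57 on the MEF arrays, detected on both. Its X-linked homologue Kdm6a stood at 10.50 and 10.49 in miPS-NSC and 8.72 and 8.78 in MEF. The group name MEF is kept from the labels, and the part of sex in the differences below was not tested. Gene names were also uneven: of the probes detected on both miPS-NSC arrays and on no MEF array, 147 of 1346 (10.92%) had no gene name, against 746 of 1291 (57.78%) of the probes detected on both MEF arrays and on no miPS-NSC array.

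The measured markers matched the labelled cell types. All 6 measured NSC markers (Nes, Sox2, Fabp7, Hes5, Olig2 and Notch1, of 11 in the list) were detected on both miPS-NSC arrays, and 4 of them (Sox2, Fabp7, Hes5 and Olig2) were on no MEF array. The summed log2 level of these 6 genes was 50.9 and 52.7 on the miPS-NSC arrays, 58.5 and 58.9 on the pNSC arrays, 61.0 and 61.8 on the fNSC arrays and 38.6 and 38.8 on the MEF arrays. All 5 measured fibroblast markers (Thy1, Col1a2, Prrx1, Twist1 and Twist2, of 12) were detected on both MEF arrays, and 3 of them (Thy1, Prrx1 and Twist1) also on both miPS-NSC arrays. Their summed log2 level was 36.5 and 35.5 in miPS-NSC, 30.0 and 30.4 in pNSC, 32.0 and 32.1 in fNSC and 59.5 and 60.1 in MEF. None of the defining markers chosen for oligodendrocytes, endothelial cells, macrophages and epithelial cells (such as Mbp, Pecam1, Ptprc and Epcam) was among the measured genes, so the part of such cells was not tested.

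Between miPS-NSC and MEF, 3349 of 8107 genes were called (41.3%), 1964 higher in miPS-NSC (24.2%) and 1385 lower (17.1%). A gene was called when its limma p, adjusted by Benjamini-Hochberg over all genes, was under 0.05, its difference was at least 2-fold, and the brighter group was detected on both arrays. The median log2 difference over all 8107 genes was 0.217. A median of fitted differences includes values below background, so medians with undetected values raised to the lowest detected signal are also given, as medians at bounds (0.129 over all genes). Of the 786 genes detected on both miPS-NSC arrays and on no MEF array, 678 were called higher, and of the 368 genes with the opposite pattern, 312 were called lower. As a call needs the brighter group detected, calls in these sets could go in that direction only. The sizes of both sets also depend on the uneven gene names. Another 6380 genes were detected on both arrays of both groups, and 1221 of these were higher in miPS-NSC and 978 lower. The RNA came from bulk cultures, in which fewer cells of a type and less RNA per cell cannot be told apart.

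The 12 genes highest above MEF included glial and brain genes beside genes of other roles. Olig1, a transcription factor of the oligodendrocyte lineage, stood at 14.84 and 14.68 on the miPS-NSC arrays, against 5.01 and 4.92 on the MEF arrays, where it was not detected. The difference was at least 366-fold (log2 difference 9.80, SE 0.0945, limma adjusted p = 5.49e-09). Nup210, a membrane glycoprotein of the nuclear pore, stood at 14.27 and 14.28 in miPS-NSC, against 4.96 and 4.87 in MEF, a difference of at least 261-fold. No array of one group came near the other for either gene. Lcn2, a secreted protein that binds iron-carrying siderophores, stood at 13.70 and 13.80 in miPS-NSC, against 4.70 and 4.58 in MEF (at least 182-fold). Plvap, which forms the diaphragms of fenestrated endothelium, stood at 13.04 and 13.12 against 5.26 and 5.14 in MEF (at least 114-fold).

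The other genes of the 12 largest higher calls were not detected in MEF either. Ncan, a chondroitin sulphate proteoglycan of brain matrix, was at least 135-fold higher, Bcas1, a gene of maturing oligodendrocytes, at least 154-fold, and Camk2b, a subunit of the calcium/calmodulin-dependent kinase II, at least 121-fold. Aldoc, the brain form of aldolase, was at least 137-fold higher, Atp1b2, a glial subunit of the sodium pump, at least 73.5-fold, and Rfx4, a transcription factor of brain development, at least 59.1-fold. Bex2 (at least 220-fold) and the growth factor Fgf1 (at least 78.2-fold) completed the set. For Bex2 another probe showed a log2 difference of 0.08 and one more 7.47, and for Fgf1 another probe showed 2.12, so both values depend on the probe. The SE of these 12 log2 differences lay between 0.0815 and 0.182.

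The 12 genes farthest below MEF included contractile, matrix and mesenchymal genes beside an imprinted gene and a growth factor. Acta2, smooth muscle actin, stood at 6.86 and 6.52 on the miPS-NSC arrays, against 15.99 and 15.91 on the MEF arrays, 613-fold lower (log2 difference -9.26, SE 0.121, limma adjusted p = 6.32e-09), and the other 3 Acta2 probes fell by 8.0 to 10.4 on the log2 scale. Anxa3, a phospholipid-binding annexin, stood at 6.17 and 6.19 in miPS-NSC, detected on 1 array, against 15.0 and 14.94 in MEF (at least 437-fold lower). Loxl1, a crosslinking enzyme of elastic fibres, stood at 5.62 and 5.26 in miPS-NSC, where it was not detected, against 14.04 and 14.13 in MEF (at least 237-fold lower). The groups lay far apart for all 3 genes. Ndn, the necdin gene of the Prader-Willi region, which is read from the paternal copy, stood at 5.01 and 5.32 in miPS-NSC, not detected, against 13.55 and 13.53 in MEF (at least 163-fold lower).

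Of the other 8 largest lower calls, 5 were not detected in miPS-NSC. These were Gask1b, a Golgi kinase-like protein (at least 213-fold lower), Aebp1, a collagen-binding matrix protein (at least 120-fold), the mesenchymal transcription factor Twist2 (at least 96.4-fold), the growth factor Igf2 (at least 150-fold) and the matrix proteoglycan Ogn (at least 135-fold). Thbs2, a matricellular thrombospondin, Ccn2, the connective tissue growth factor, and Serpinf1, a secreted serpin known as PEDF, were detected in both groups and were 258-fold, 215-fold and 210-fold lower in miPS-NSC. Another Ogn probe showed a log2 difference of -4.29.

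**Figure D1:**
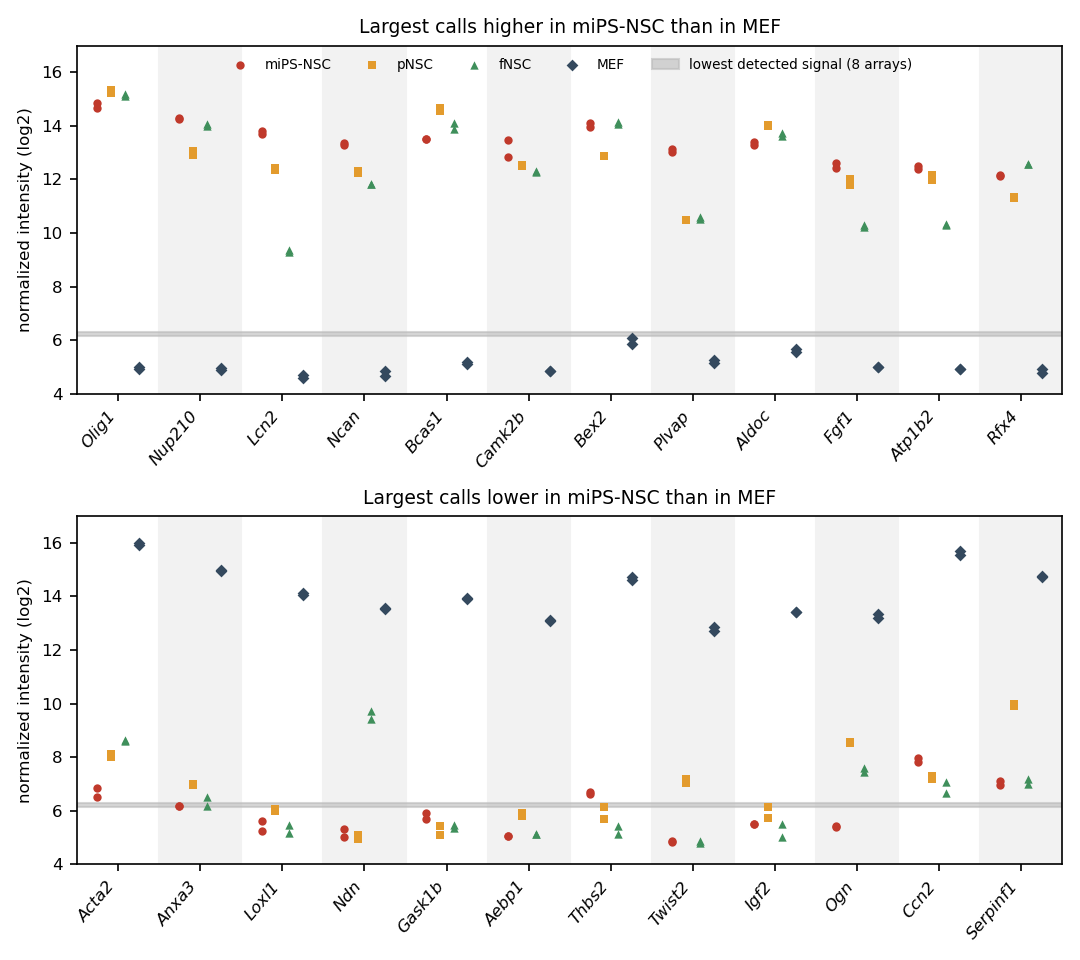
Normalized log2 intensity of each array for the 12 genes with the largest higher calls (top) and the 12 with the largest lower calls (bottom) in miPS-NSC against MEF, with the lowest signal of a detected probe as a grey band. In the top panel every MEF point lies below the band and every NSC point above it, and in the bottom panel the MEF points lie far above all NSC points.

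To show the start regions behind the largest differences, the 250 bases before the annotated start are given for Nup210 and Lcn2 (higher in miPS-NSC) and for Acta2 and Ndn (lower), the genes with the largest calls whose promoters the RefSeq table held (7 of 12 higher and 9 of 12 lower genes had one). Coordinates are those of GRCm38.p6, and capitals mark a match to a searched motif on either strand.
Nup210, chr6:91116827-91117076, minus strand: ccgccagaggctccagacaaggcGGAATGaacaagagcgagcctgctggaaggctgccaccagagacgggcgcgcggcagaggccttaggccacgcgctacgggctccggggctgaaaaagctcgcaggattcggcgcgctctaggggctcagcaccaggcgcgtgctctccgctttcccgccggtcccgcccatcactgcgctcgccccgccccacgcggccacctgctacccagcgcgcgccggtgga
Lcn2, chr2:32387740-32387989, minus strand: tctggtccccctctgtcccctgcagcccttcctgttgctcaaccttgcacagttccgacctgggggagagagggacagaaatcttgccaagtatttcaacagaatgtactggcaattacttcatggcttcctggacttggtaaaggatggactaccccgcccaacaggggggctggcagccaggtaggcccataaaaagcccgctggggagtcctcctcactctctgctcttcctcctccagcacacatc
Acta2, chr19:34255374-34255623, minus strand: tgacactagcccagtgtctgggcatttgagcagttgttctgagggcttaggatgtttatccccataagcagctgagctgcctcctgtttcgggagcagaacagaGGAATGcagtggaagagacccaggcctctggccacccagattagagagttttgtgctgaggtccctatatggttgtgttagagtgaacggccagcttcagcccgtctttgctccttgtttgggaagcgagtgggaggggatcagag
Ndn, chr7:62348027-62348276, plus strand: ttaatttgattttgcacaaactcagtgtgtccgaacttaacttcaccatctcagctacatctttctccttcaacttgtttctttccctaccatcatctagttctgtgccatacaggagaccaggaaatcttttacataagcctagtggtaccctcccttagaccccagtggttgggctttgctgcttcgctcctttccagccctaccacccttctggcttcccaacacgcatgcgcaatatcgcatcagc
The motifs searched were TGANTCA (AP-1), GGAATG (TEAD) and ACAAAG and ACAATG (SOX), on both strands. Nup210 and Acta2 each held 1 GGAATG, and Lcn2 and Ndn held none of the 4 motifs. Over the 6652 genes tested with a promoter, GGAATG was found in 9.33% of the 1597 promoters of genes higher in miPS-NSC, in 13.5% of the 1130 of lower genes and in 10.3% of all. TGANTCA was found in 3.57% of promoters of higher genes, 6.11% of lower genes and 3.94% of all. ACAAAG was found in 12.3%, 10.7% and 11.6% of the same 3 sets, and ACAATG in 5.32%, 4.34% and 5.56%. These shares are descriptions of letters in the window and say nothing about binding.

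The 6 measured SOX factors, of 17 in the list, were higher in miPS-NSC than in MEF. They had a median log2 difference of 3.797 (3.231 at bounds), and 24.2% of all genes rose. Of the probes detected on both MEF arrays and on no NSC array, 712 of 902 (78.94%) had no gene name. A SOX factor on in MEF alone could thus be missing, and the lack of a fall is partly set by the naming. The medians were 3.654 in pNSC and 3.526 in fNSC (3.13 and 3.1 at bounds), and none of the 6 was called between miPS-NSC and the mean of the other NSC groups. Against fNSC alone 2 of the 6 were lower in miPS-NSC (5.42% of all genes were), and against pNSC alone 0 were called. Sox2, a factor of both neural and pluripotent stem cells, stood at 8.28 and 8.66 in miPS-NSC, against 4.83 and 4.83 in MEF, where it was not detected (at least 4.67-fold, limma adjusted p = 1.62e-05). Sox21, a SOX factor of neural progenitors, was at least 75.3-fold higher with the brightest probe and had a log2 difference of 2.73 with another. Sox9, a factor of glial fate, was at least 9.34-fold higher. The Sox2 levels of 8.33 and 8.94 in pNSC and 8.33 and 9.04 in fNSC overlapped those of miPS-NSC.

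Among 13 measured NSC markers, 8 rose and 1 fell against MEF, where 24.2% of all genes rose and 17.1% fell (median 1.59, 1.012 at bounds). The glutamate transporter Slc1a3, a gene of radial glia, stood at 15.65 and 15.43 in miPS-NSC, against 8.79 and 8.60 in MEF (115-fold higher). Nes, the intermediate filament of neural progenitors, stood at 10.89 and 11.16 in miPS-NSC, against 9.58 and 9.29 in MEF (3.01-fold), while another Nes probe differed by only 0.24 on the log2 scale and the mean of both probes (0.91) missed the 2-fold limit. Vim, an intermediate filament shared with fibroblasts, fell 2.74-fold. Notch1 had a log2 difference of 0.68 and was not called.

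Relative to the mean of fNSC and pNSC, for which "the other NSC groups" stands in every difference or fold below, 4 of these 13 markers were lower in miPS-NSC and 1 was higher (5.13% and 6.92% of all genes were). Fabp7, a fatty acid carrier of radial glia, stood at 6.74 and 7.77 on the miPS-NSC arrays, 9.56 and 9.90 in pNSC, 9.81 and 10.37 in fNSC and 5.21 and 5.27 in MEF. Its distance to MEF was 2.02 in miPS-NSC, against 4.49 in pNSC and 4.85 in fNSC (difference -2.65, limma adjusted p = 0.000291). Hes5, the Notch-driven repressor, stood at 8.16 and 8.18 in miPS-NSC, 9.51 and 9.39 in pNSC, 10.83 and 10.96 in fNSC and 5.04 and 5.07 in MEF (difference -2.0). For both genes all miPS-NSC arrays lay below all arrays of the other NSC groups and above MEF. Notch1 and Nes were lower than in the other NSC groups by 2.28-fold and 2.21-fold, while Ncan was 2.4-fold higher.

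Against MEF, 6 of 13 measured Notch pathway genes rose in miPS-NSC and 1 fell (24.2% of all genes rose and 17.1% fell). The median was 0.679, with 1.786 in pNSC and 2.072 in fNSC, but at bounds it was 0.679 in miPS-NSC, 1.67 in pNSC and 0.702 in fNSC, so the order of the groups changed. Hey1, a Notch target, was 14.7-fold higher than in MEF, at 11.56 and 11.79 on the miPS-NSC arrays and 7.70 and 7.90 on the MEF arrays. Nrarp, a feedback inhibitor of Notch, was at least 5.45-fold higher than in MEF and 2.24-fold lower than in the other NSC groups. Of the 13 members, 5 were lower and 2 higher in miPS-NSC than the mean of fNSC and pNSC, where 5.13% of all genes were lower and 6.92% higher.

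Astrocyte and neuron genes were mostly above MEF. Of 7 measured astrocyte genes 5 rose and 0 fell (median 3.906, 3.587 at bounds), and of 12 measured neuron genes 10 rose and 1 fell (median 2.8, 1.994 at bounds), where 24.2% of all genes rose and 17.1% fell. Slc1a2, the main astrocyte glutamate transporter, stood at 9.86 and 9.81 in miPS-NSC, 7.71 and 7.60 in pNSC, 8.44 and 8.29 in fNSC and 6.06 and 5.79 in MEF, not detected in MEF. Clu, clusterin, a chaperone secreted by astrocytes, stood at 11.52 and 11.64 in miPS-NSC, 10.49 and 10.41 in pNSC, 7.34 and 7.52 in fNSC and 6.69 and 6.71 in MEF. Both genes were highest in miPS-NSC, by 3.54-fold and 6.24-fold over the mean of the other NSC groups. Apoe, a lipid carrier secreted by astrocytes, stood at 9.61 and 9.63 in miPS-NSC, 11.44 and 11.31 in pNSC, 6.06 and 5.45 in fNSC and 7.21 and 7.01 in MEF, below pNSC and above fNSC. Of the 7 astrocyte genes, 2 were higher and 1 was lower in miPS-NSC than in pNSC (median -0.673), and 4 were higher and 0 lower than in fNSC (median 1.469). Aldh1l1, an astrocyte enzyme, was not detected in miPS-NSC (5.86 and 5.91) or MEF (6.21 and 5.93) with its brightest probe, while another probe was detected on both MEF arrays and on 0 miPS-NSC arrays (log2 difference -1.93).

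Syt1, the calcium sensor of synaptic vesicle release, stood at 9.48 and 9.17 on the miPS-NSC arrays, 4.92 and 4.76 in pNSC, 6.36 and 6.12 in fNSC and 5.26 and 5.28 in MEF. It was detected on both arrays of miPS-NSC and on 1 array of the other 6. Gad1, which makes the transmitter GABA, stood at 9.73 and 9.63 in miPS-NSC, 7.76 and 7.29 in pNSC, 6.23 and 6.62 in fNSC and 4.71 and 4.74 in MEF (6.54-fold above the mean of the other NSC groups, limma adjusted p = 1.49e-05). Map2, a dendrite microtubule protein, was 12-fold above MEF and was not called against the other NSC groups. Stmn2, a microtubule regulator of growing axons, fell at least 10.6-fold against MEF, in which it was detected on both arrays (9.63 and 9.57). Of the 12 neuron genes, 4 were higher and 1 lower in miPS-NSC than the mean of the other NSC groups (6.92% and 5.13% of all genes). Against pNSC alone 5 were higher and 3 lower (7.49% and 6.81% of all genes). Against fNSC alone 6 were higher and 1 lower (8.3% and 5.42%).

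Of 7 measured oligodendrocyte lineage genes 5 rose and 2 fell against MEF (24.2% of all genes rose and 17.1% fell), with a median of 2.086 (2.017 at bounds). The transcription factors Olig1, Nkx2-2 and Olig2 rose, as did Bcas1 and the myelin enzyme Cnp (4.05-fold). Nkx2-2 rose by at least 27.1-fold (another probe by 3.43 on the log2 scale) and Olig2 by at least 1.61-fold. Pdgfra, the receptor of oligodendrocyte progenitors and of mesenchyme, stood at 5.45 and 6.42 in miPS-NSC, 10.80 and 11.01 in pNSC, 5.60 and 5.32 in fNSC and 11.89 and 11.99 in MEF. In pNSC it lay below MEF and far above background, and in miPS-NSC and fNSC it was at or near background. It was at least 50-fold below MEF in miPS-NSC. Regional factors also differed from MEF: En2, of the midbrain and hindbrain border, was at least 21.6-fold higher, and Otx1, of forebrain and midbrain, at least 23.6-fold higher. En1 was lower than in MEF by 3.37-fold (8.52 and 8.68 in miPS-NSC, 10.34 and 10.37 in MEF) and above the other NSC groups (7.37 and 7.49 in pNSC, 5.90 and 5.12 in fNSC). Hoxa7, a gene of posterior identity, was not detected in miPS-NSC (5.56 and 5.57), against 7.44 and 7.45 in pNSC, 7.95 and 7.89 in fNSC and 8.71 and 8.90 in MEF.

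Most measured matrix and mesenchymal genes were below MEF. Of 13 measured fibroblast markers 10 fell and 1 rose (median -4.372, -3.706 at bounds), of 11 collagens 10 fell (median -3.554, -3.062 at bounds), of 14 contractile genes 11 fell (median -3.61), of 24 matrix enzymes 19 fell and 2 rose (median -2.562, -2.509 at bounds) and of 25 matrix glycoproteins 16 fell and 4 rose (median -1.699, -1.282 at bounds), where 17.1% of all genes fell and 24.2% rose. Col1a2, a chain of type I collagen, stood at 5.70 and 5.35 in miPS-NSC, not detected, against 11.14 and 11.66 in MEF (at least 36.9-fold lower). Col7a1, of anchoring fibrils, and Nid1, a basement membrane linker, were at least 105-fold and at least 123-fold lower. Mmp2, a gelatinase, was 74.5-fold lower, Timp1, an inhibitor of such proteases, at least 103-fold, and Tpm1, a tropomyosin of actin filaments, 42.4-fold.

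**Figure D2:**
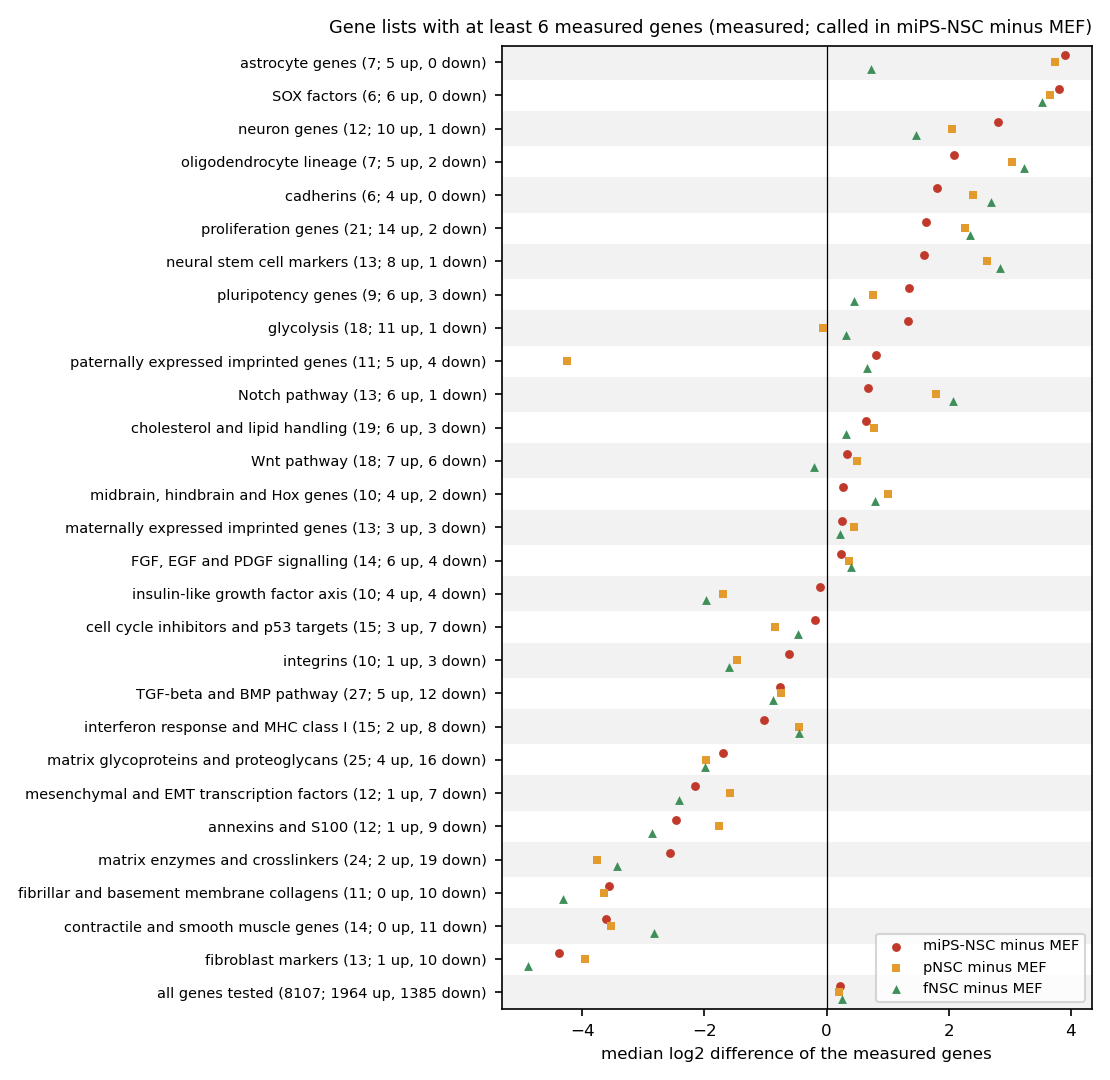
Median log2 difference from MEF of the measured genes of each list for miPS-NSC, pNSC and fNSC, with the measured genes and the calls each way (miPS-NSC minus MEF) counted beside each name and all 8107 genes at the bottom. Matrix, contractile and fibroblast lists lie on the left for all 3 groups, and glycolysis, pluripotency and the insulin-like growth factor axis lie farther right in miPS-NSC than in pNSC and fNSC.

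The mesenchymal transcription factors did not move as 1 block. Of 12 measured, 7 fell and 1 rose (24.2% of all genes rose and 17.1% fell). Snai1, a repressor of epithelial genes, stood at 5.41 and 5.65 in miPS-NSC, not detected, against 9.92 and 9.89 in MEF (at least 13-fold lower), and Prrx1, a mesenchymal homeobox factor, was 12.9-fold lower. Zeb1, also a repressor of epithelial genes, was 5.4-fold higher in miPS-NSC, at 13.82 and 13.95 on its arrays and 11.43 and 11.48 in MEF. Twist1 stood at 9.46 and 9.17 in miPS-NSC, 5.28 and 4.85 in pNSC, 8.87 and 8.93 in fNSC and 10.28 and 10.33 in MEF. Its difference from MEF (-0.99 on the log2 scale) just missed 2-fold, and was -1.13 without the first miPS-NSC array and -1.02 without the first MEF array, which would pass.

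Annexins and S100 proteins, calcium-binding proteins abundant in mesenchyme, fell in 9 of 12 cases and rose in 1 (24.2% of all genes rose and 17.1% fell), with a median of -2.46 (-2.051 at bounds). S100a4, a fibroblast marker, was at least 31.3-fold lower than in MEF. Anxa2 stood at 13.84 and 13.94 in miPS-NSC, 13.43 and 13.46 in pNSC, 8.34 and 8.19 in fNSC and 15.81 and 15.87 in MEF, so the fall against MEF was 3.86-fold in miPS-NSC and its log2 difference was -2.40 in pNSC and -7.57 in fNSC. Lyz1, a lysozyme of macrophages and blood cells, was not detected in miPS-NSC (5.45 and 5.35), against 12.62 and 12.59 in MEF. Of the 15 measured genes of interferon response and MHC class I, 8 fell and 2 rose, beside the same shares of all genes.

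Cell cycle genes were higher than in MEF. Of 21 measured proliferation genes 14 rose and 2 fell (24.2% of all genes rose and 17.1% fell), with a median of 1.627. Top2a, the topoisomerase of dividing cells, stood at 12.20 and 12.16 in miPS-NSC, against 9.30 and 9.47 in MEF (6.93-fold), and the mitotic kinases Plk1 and Cdk1 were 5-fold and 4.65-fold higher. Ccnd2, a cyclin of the first growth phase, fell 2.21-fold. The distance was larger in the other NSC groups, where 18 of 21 rose in pNSC (median 2.264) and 18 in fNSC (median 2.356). Against their mean, 5 of the 21 were lower in miPS-NSC and 0 higher (median -0.787), where 5.13% of all genes were lower and 6.92% higher. The groups were not alike: 10 of the 21 were lower than in pNSC (median -0.994; 6.81% of all genes) and 2 lower than in fNSC (median -0.613; 5.42%). Mcm3, a subunit of the replicative helicase, stood at 8.56 and 8.67 in miPS-NSC, 10.28 and 10.16 in pNSC, 9.95 and 9.59 in fNSC and 6.97 and 6.99 in MEF. Rrm2, of ribonucleotide reductase, was 3.44-fold lower than in the other NSC groups, and its difference from MEF (0.99, not called) took the opposite sign with another probe (-0.78).

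Of 15 measured cell cycle inhibitors and p53 targets, 7 were lower and 3 higher than in MEF (24.2% of all genes rose and 17.1% fell). Relative to the other NSC groups 5 were higher and 3 lower (6.92% and 5.13% of all genes were). Ccng1, a target of p53, stood at 9.70 and 9.83 in miPS-NSC, 12.58 and 12.61 in pNSC, 12.69 and 12.45 in fNSC and 14.20 and 14.27 in MEF. It was lowest in miPS-NSC, 22.1-fold below MEF and 7.05-fold below the mean of the other NSC groups (limma adjusted p = 1.13e-06). Trp53inp1, another p53 target, was 8.5-fold below MEF and 5.65-fold below the other NSC groups. Cdkn1a, the p53-driven inhibitor p21, was 4.17-fold and 3.11-fold below them, and its 2 other probes also fell. Mdm2, which degrades p53 and is its target, was 6.93-fold below MEF and was not called against the other NSC groups.

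Gadd45a, also a p53 target, was 3.69-fold above the other NSC groups and not called against MEF (-0.13). Bbc3, a p53 target that promotes cell death, was called in neither comparison (-0.18 and 0.47).

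Of the 4 measured Cdkn2 genes, 2 were above the other NSC groups and Cdkn2c (-0.18) and Cdkn2d (0.24) were not called. Cdkn2a, which encodes the inhibitors p16 and ARF, stood at 10.79 and 11.05 in miPS-NSC, 6.30 and 5.45 in pNSC, 8.77 and 9.03 in fNSC and 10.92 and 10.79 in MEF. The miPS-NSC level overlapped that of MEF and was at least 10.1-fold above the mean of the other NSC groups (limma adjusted p = 2.33e-05). Another Cdkn2a probe was 1.31 above MEF and 2.79 above the other NSC groups on the log2 scale, so the overlap with MEF depends on the probe. Its neighbour Cdkn2b, the inhibitor p15, stood at 11.98 and 12.01 in miPS-NSC, 10.42 and 10.81 in pNSC, 7.18 and 6.77 in fNSC and 13.31 and 13.37 in MEF. Both lie on chromosome 4. On it 59 of 493 genes were higher and 15 lower in miPS-NSC than the mean of the other NSC groups (median 0.29). Over all genes 6.92% were higher and 5.13% lower (median -0.026). Compared with MEF, 108 of the 493 were higher and 82 lower in miPS-NSC (median 0.181, beside 0.217 over all genes). Whether miPS-NSC or the other NSC groups set this chromosome apart was not tested. The imprinted inhibitor Cdkn1c was 4.22-fold below MEF and 4.87-fold above the other NSC groups.

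The 3 NSC groups lay at a like distance from MEF. The root mean square log2 difference from MEF over all genes was 1.667 for miPS-NSC, 1.685 for pNSC and 1.712 for fNSC. Between single arrays it was 1.667 to 1.682, 1.686 to 1.698 and 1.713 to 1.724 in these groups, ranges that did not overlap, and the arrays of 1 group differed by 0.1638 to 0.261. These array pairs share arrays, so no test was made. The number of genes over 5 log2 units from MEF did not follow that order, with 156 in miPS-NSC, 144 in pNSC and 173 in fNSC. Against MEF, 3479 genes were called in pNSC (42.9%), 2057 higher (25.4%) and 1422 lower (17.5%). In fNSC 3430 were called (42.3%), 2047 higher (25.2%) and 1383 lower (17.1%). These comparisons share the MEF arrays with that of miPS-NSC, so their calls are given side by side and not as separate support.

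Whether a gene's distance to MEF differed was tested as miPS-NSC minus the mean of fNSC and pNSC, a contrast from which MEF cancels. It called 977 genes (12.1%), 561 higher in miPS-NSC (6.92%) and 416 lower (5.13%). Against each group alone, 1159 genes were called against pNSC (14.3%; 607 higher, 7.49%, and 552 lower, 6.81%) and 1112 against fNSC (13.7%; 673 higher, 8.3%, and 439 lower, 5.42%). Of the 977, 417 (42.68%) stood in miPS-NSC on the side of MEF. For these the mean of fNSC and pNSC was called against MEF, and miPS-NSC differed from it in the direction of MEF. Over all genes that mean was called against MEF, in either direction, for 3404 (42%). The 42% has no condition on miPS-NSC, so it is no background for the 42.68%. Of the 417, 240 were higher and 177 lower, and 219 were not called between miPS-NSC and MEF. Another 214 (21.9%) lay farther from MEF than the other NSC groups did. For the remaining 346 (35.41%) the mean of the other NSC groups was not called against MEF. The split uses the same fNSC and pNSC arrays on both sides, depends on the uneven gene names, and is a description.

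**Figure D3:**
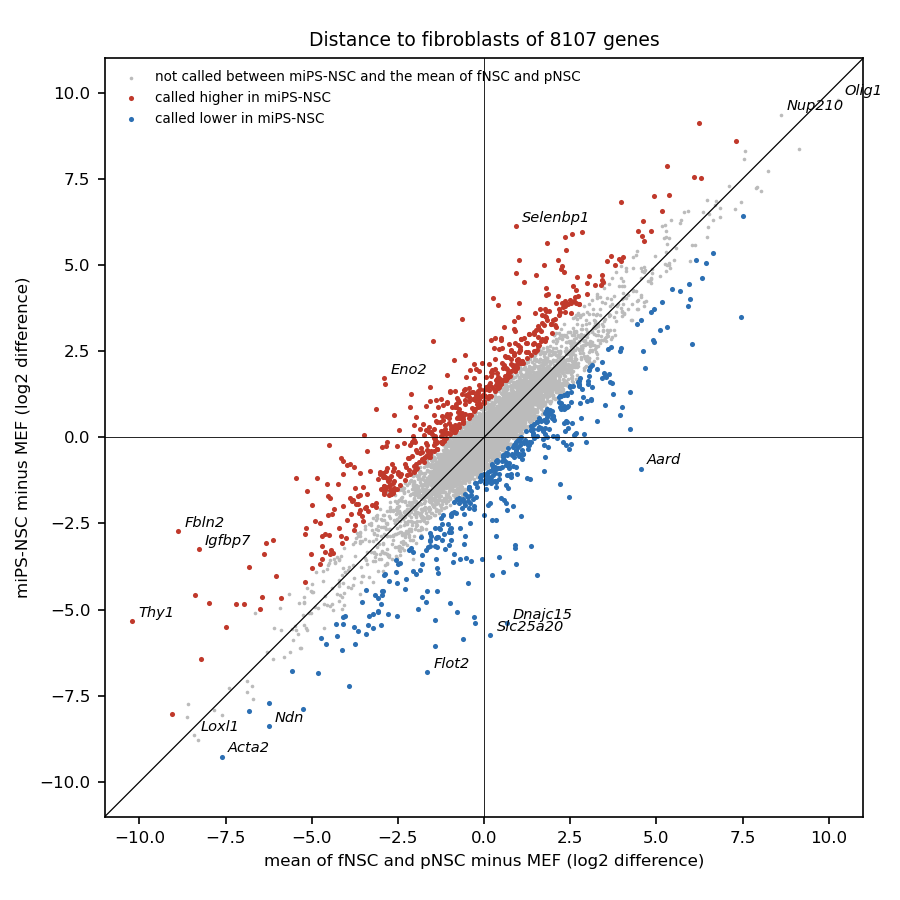
Log2 difference of miPS-NSC from MEF against that of the mean of fNSC and pNSC from MEF, 1 point per gene, with the line of equal distance and the calls between miPS-NSC and the other NSC groups in colour. Of the 977 coloured genes, 561 lie above the line and 416 below it, and both axes share the MEF arrays.

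The named genes most above the other NSC groups included several that fibroblasts express strongly. Only probes with a detection p below 0.05 on 4 or more arrays had names. A gene on in miPS-NSC and MEF meets that limit, whereas a gene on in miPS-NSC alone may not. The share of fibroblast genes among these calls therefore depends on the naming. Of 1520 unnamed probes, 117 were called higher and 59 lower in this contrast, and of 10958 named probes 698 and 558. As a list, the 13 measured fibroblast markers had 2 higher and 2 lower in miPS-NSC than the mean of fNSC and pNSC (median -0.237). Of 14 contractile genes 2 were higher and 3 lower, and of 12 annexins and S100 genes 1 was higher and 2 lower. Over all genes 6.92% were higher and 5.13% lower, and the matrix lists are given below. Fbln2, a fibulin of matrix fibres, stood at 12.55 and 12.74 on the miPS-NSC arrays, 5.68 and 5.49 in pNSC, 7.50 and 7.30 in fNSC and 15.30 and 15.44 in MEF. It was 6.6-fold below MEF and at least 57.3-fold above the mean of the other NSC groups (log2 difference 6.16, SE 0.105, limma adjusted p = 1.6e-07). Another Fbln2 probe was 3.41 above the other NSC groups and -3.75 against MEF on the log2 scale. Igfbp7, a secreted binding protein of mesenchyme and vessels, stood at 12.07 and 12.32 in miPS-NSC, 6.18 and 6.54 in pNSC, 8.14 and 7.81 in fNSC and 15.32 and 15.58 in MEF. Thy1, a surface glycoprotein of fibroblasts and neurons, stood at 9.83 and 9.65 in miPS-NSC, 4.82 and 4.75 in pNSC, 5.11 and 4.79 in fNSC and 15.08 and 15.06 in MEF. For all 3 genes the miPS-NSC arrays lay between MEF and the other NSC groups, with no overlap, and Thy1 was not detected in pNSC or fNSC.

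Other genes of this set reached or passed the MEF level. Cd40, a receptor of the tumour necrosis factor family, stood at 9.82 and 9.79 in miPS-NSC, 5.66 and 5.57 in pNSC, 5.30 and 5.57 in fNSC and 10.08 and 9.98 in MEF, and was not called against MEF (-0.22). Its other probes were 3.09 and 0.89 above the other NSC groups on the log2 scale. Eno2, the neuronal enolase, stood at 12.87 and 12.82 in miPS-NSC, 9.93 and 9.95 in pNSC, 6.51 and 6.49 in fNSC and 11.17 and 11.06 in MEF, and Itm2a, a membrane protein, at 11.77 and 11.74, 7.64 and 7.89, 7.27 and 7.12 and 8.95 and 8.95 in the same groups. Ndrg1, a stress gene induced by low oxygen, stood at 9.87 and 10.29 in miPS-NSC, 6.20 and 5.44 in pNSC, 5.79 and 5.30 in fNSC and 8.60 and 8.49 in MEF. Eno2, Itm2a and Ndrg1 were above both MEF and the other NSC groups.

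For 2 genes of the set MEF was not detected. Selenbp1, a selenium-binding oxidase, stood at 11.14 and 11.25 in miPS-NSC, 5.32 and 5.26 in pNSC, 6.62 and 6.77 in fNSC and 5.16 and 5.0 in MEF. Agt, angiotensinogen, a product of astrocytes and liver, stood at 10.03 and 10.19 in miPS-NSC, 6.61 and 6.75 in pNSC, 5.71 and 4.81 in fNSC and 4.88 and 5.06 in MEF. Both were detected clearly in miPS-NSC and were near or below background in every other group. Lcn2 and Plvap, among the largest differences from MEF, were also 7.38-fold and 5.92-fold above the mean of the other NSC groups, and Lcn2 was at 12.43 and 12.37 in pNSC and 9.36 and 9.31 in fNSC.

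The genes most below the other NSC groups were below detection in miPS-NSC. All 10 of the largest lower calls were detected on both arrays of pNSC and fNSC and on no miPS-NSC array, and 9 of them on both MEF arrays. Slc25a20, the mitochondrial carrier of acylcarnitines, stood at 5.71 and 5.26 on the miPS-NSC arrays, 11.39 and 11.51 in pNSC, 11.44 and 11.25 in fNSC and 11.24 and 11.19 in MEF, at least 36.8-fold below the other NSC groups, while another probe fell by 2.20 on the log2 scale. Dnajc15, a co-chaperone of the inner mitochondrial membrane, stood at 4.91 and 4.70 in miPS-NSC, 10.86 and 10.92 in pNSC, 10.71 and 10.86 in fNSC and 10.19 and 10.19 in MEF (at least 25-fold). Flot2, a protein of membrane microdomains, stood at 5.41 and 5.64 in miPS-NSC, 12.13 and 12.28 in pNSC, 9.11 and 9.21 in fNSC and 12.30 and 12.36 in MEF (at least 22.4-fold), and another probe fell by 3.81. In these 3 genes the other NSC groups did not stand far from MEF, except Flot2 in fNSC, and miPS-NSC stood alone.

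Phlda3, a p53 target that restrains Akt, was at least 11.7-fold below the other NSC groups and Ddit4l, an inhibitor of mTOR signalling, at least 12.9-fold. Slc50a1, a sugar transporter, was at least 12.1-fold below them, the glutathione transferase Gstm5 at least 20-fold, the kinase Camk1 at least 16.2-fold and Mfsd2a, which imports lipids carrying omega-3 fatty acids into brain, at least 16.8-fold. Akr1e1, an aldo-keto reductase, was at least 9.13-fold below them. Aard stood at 5.08 and 5.12 in miPS-NSC, 10.35 and 10.09 in pNSC, 10.79 and 10.97 in fNSC and 6.20 and 5.81 in MEF, so that MEF and miPS-NSC were both below background and the other NSC groups stood apart. Over all genes, 59 were detected on both arrays of fNSC, pNSC and MEF and on no array of miPS-NSC. The same pattern held for 36 genes with pNSC as the undetected group and for 74 genes with fNSC. In the other direction 87 genes were detected on both miPS-NSC arrays and on no fNSC or pNSC array, and 52 of these were on both MEF arrays and 32 on none. Names were limited to probes with a detection p below 0.05 on 4 or more arrays. Genes on in both miPS-NSC and MEF meet that limit, whereas genes on in miPS-NSC alone may not. The split of the 87 therefore depends on the naming and does not measure how many such genes are shared with MEF.

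**Figure D4:**
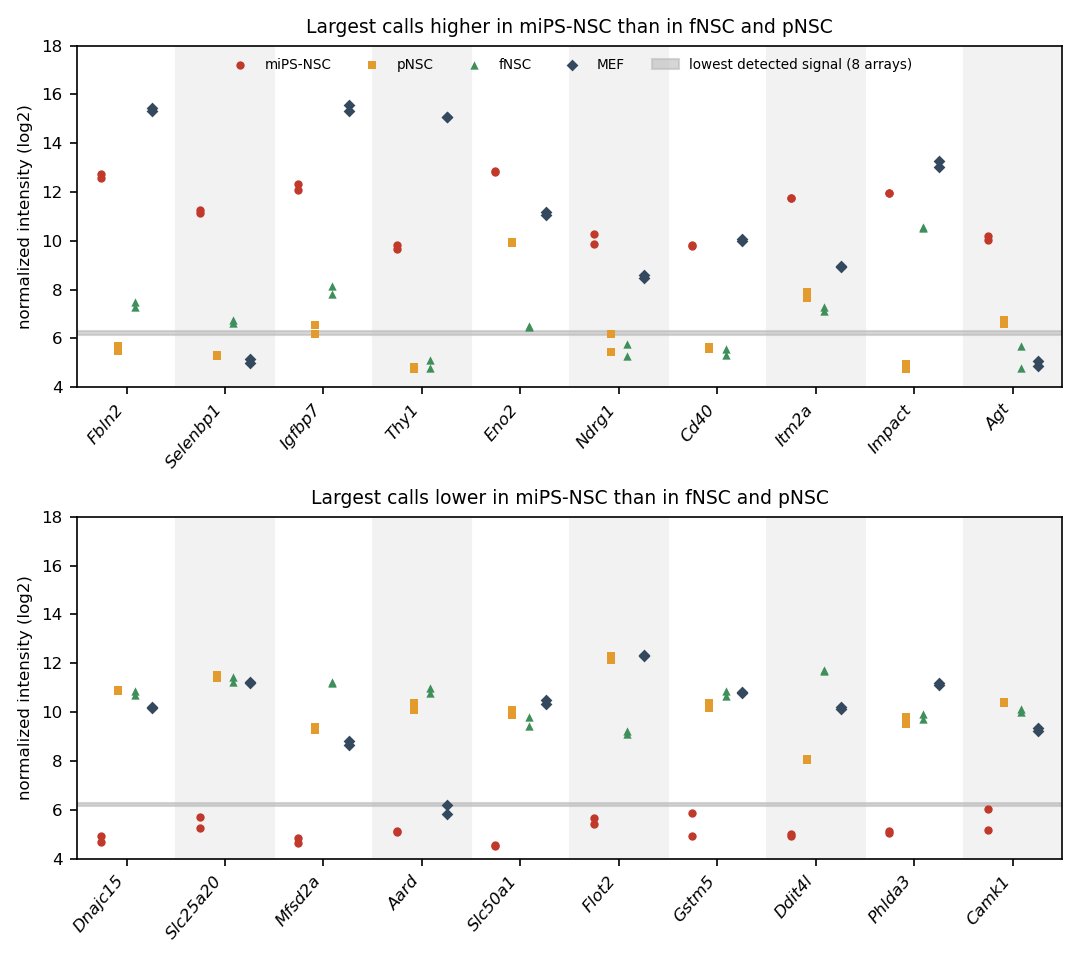
Normalized log2 intensity of each array for the 10 genes most above (top) and most below (bottom) the mean of fNSC and pNSC in miPS-NSC, with the lowest signal of a detected probe as a grey band. In the bottom panel all miPS-NSC points lie below the band, whereas MEF lies above it for 9 of the 10 genes.

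Glycolysis genes were above MEF in miPS-NSC and also above the other NSC groups. Of 18 measured members 11 rose and 1 fell in miPS-NSC against MEF (24.2% of all genes rose and 17.1% fell), with a median of 1.335, against 4 higher and 6 lower in pNSC (median -0.058) and 4 higher and 4 lower in fNSC (median 0.314). Relative to the mean of the other NSC groups 10 rose and 0 fell, where 6.92% of all genes rose and 5.13% fell (median 1.124, against -0.026 over all genes). Slc2a3, a glucose transporter of neurons, stood at 13.03 and 12.95 in miPS-NSC, 10.40 and 10.43 in pNSC, 9.17 and 9.12 in fNSC and 8.31 and 8.23 in MEF (26.3-fold above MEF and 9.23-fold above the other NSC groups). Pdk1, a kinase that keeps pyruvate out of mitochondria, stood at 10.73 and 10.58 in miPS-NSC, 7.81 and 7.29 in pNSC, 8.20 and 8.82 in fNSC and 7.55 and 7.38 in MEF. Both genes were highest in miPS-NSC on every array.

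Hk2, a hexokinase that traps glucose, stood at 13.64 and 13.56 in miPS-NSC, 10.90 and 10.90 in pNSC, 12.49 and 12.42 in fNSC and 12.49 and 12.46 in MEF. Ldha, which makes lactate, stood at 15.06 and 15.05 in miPS-NSC, 13.44 and 13.41 in pNSC, 14.36 and 14.48 in fNSC and 13.48 and 13.39 in MEF (2.19-fold above the other NSC groups, limma adjusted p = 2.47e-05). The transporter Slc2a1 and the enzymes Pfkl, Aldoa, Pgam1 and Tpi1 were 3.57-fold, 2.37-fold, 2.32-fold, 2.22-fold and 2.16-fold above the other NSC groups, and Aldoa (0.13) and Pgam1 (0.96) were not called against MEF. Another Pfkl probe was -0.72 against MEF and 0.67 against the other NSC groups, and 2 other Tpi1 probes were 1.31 and 0.46 above them on the log2 scale. Aldoc and Eno3, brain and muscle isoforms, were not called against the other NSC groups, and Eno3 fell 12.4-fold against MEF.

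Within the matrix, miPS-NSC was below MEF for most measured genes but not all, and stood above the other NSC groups for part of the genes. Of 24 matrix enzymes 10 were higher and 3 lower than the mean of fNSC and pNSC, of 25 glycoproteins 9 were higher and 1 lower, and of 11 collagens 3 were higher and 0 lower, where 6.92% of all genes were higher and 5.13% lower. Col4a1, a chain of basement membrane collagen, stood at 11.87 and 11.83 in miPS-NSC, 8.40 and 8.33 in pNSC, 8.93 and 8.72 in fNSC and 14.86 and 14.96 in MEF (9.56-fold above the other NSC groups). Its partner Col4a2 stood at 9.37 and 9.66 in miPS-NSC, 7.08 and 6.76 in pNSC, 7.50 and 7.23 in fNSC and 14.39 and 14.30 in MEF. For both chains the miPS-NSC arrays lay between the groups without overlap. Col6a1 was 3.3-fold above the mean of the other NSC groups, although pNSC (11.41 and 11.46) lay at the level of miPS-NSC (11.50 and 11.56).

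Mgp, an inhibitor of calcification, stood at 9.12 and 8.97 in miPS-NSC, 5.79 and 5.62 in pNSC, 5.06 and 5.59 in fNSC and 9.75 and 9.55 in MEF, and was not called against MEF (-0.60). Htra1, a matrix protease, stood at 10.87 and 10.75 in miPS-NSC, 7.09 and 7.19 in pNSC, 8.82 and 8.73 in fNSC and 12.50 and 12.50 in MEF. Enzymes that modify collagen were also above the other NSC groups: the lysyl hydroxylases Plod1 and Plod2 by 3.77-fold and 2.85-fold, the prolyl hydroxylase P4ha1 by 4.45-fold and the collagen chaperone Serpinh1 by at least 6.8-fold. Plod1 and Plod2 were also above MEF, by 2.4-fold and 4.28-fold, and P4ha1 (-0.18) and Serpinh1 (-0.77) were not called against MEF. Spon1, a neural matrix protein, was at least 8.04-fold above MEF and 3.53-fold above the other NSC groups. Mmp14, a membrane protease, was at least 2.58-fold above their mean but close to pNSC (8.86 and 8.69 in miPS-NSC, 8.57 and 8.65 in pNSC and 4.88 and 5.04 in fNSC). In the opposite direction Timp1 was at least 3.68-fold and Tpm1 2.47-fold below the other NSC groups. Acta2 was 3.13-fold below them with the brightest probe, while its other probes differed by -0.04 to -0.70.

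**Figure D5:**
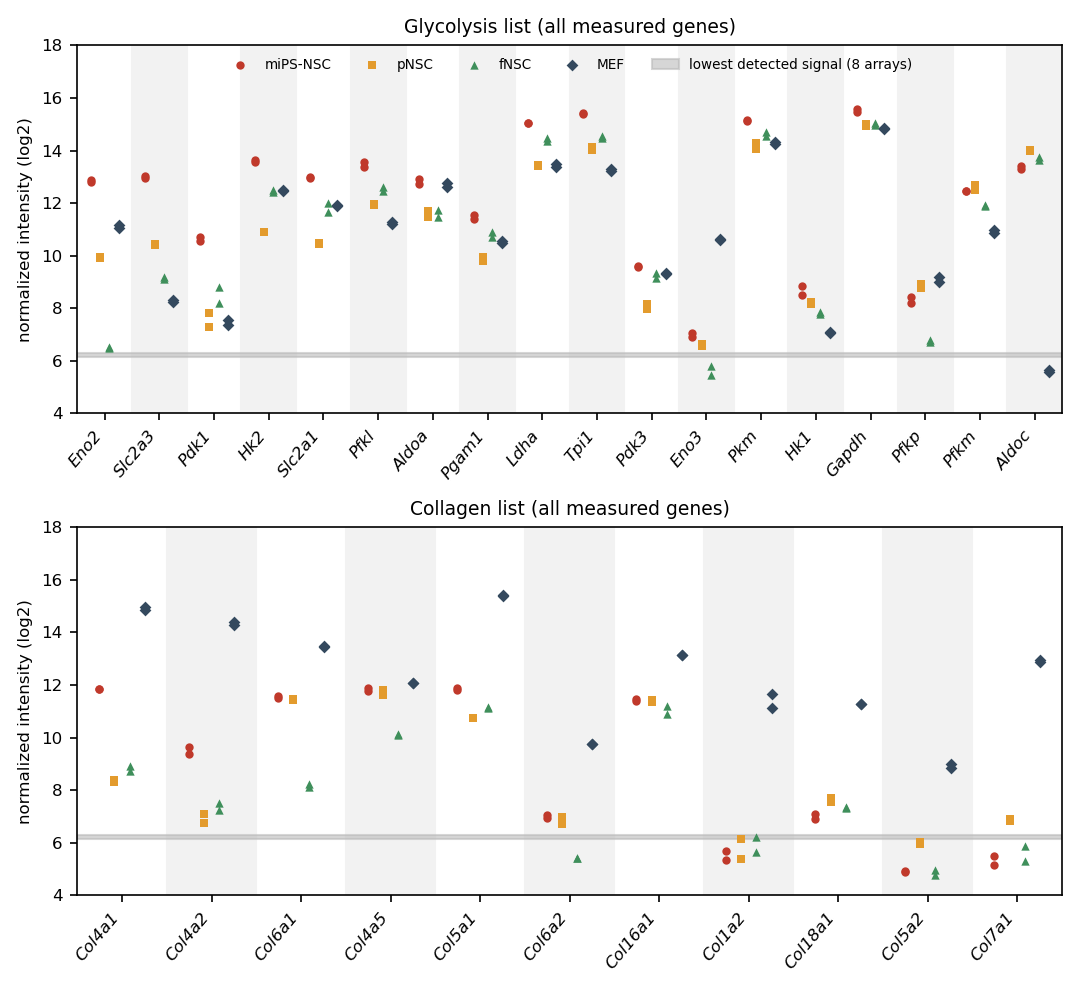
Normalized log2 intensity of each array for all measured genes of the glycolysis list (top) and the collagen list (bottom), ordered by the difference between miPS-NSC and the mean of fNSC and pNSC, with the lowest signal of a detected probe as a grey band. The genes at the left of the top panel have their highest points in miPS-NSC, and in the bottom panel the MEF points are the highest for every collagen.

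Members of the insulin-like growth factor axis differed from MEF in both directions. Of 10 measured members 4 rose and 4 fell against MEF in miPS-NSC (24.2% of all genes rose and 17.1% fell), and 4 were higher and 0 lower than in the other NSC groups (6.92% and 5.13% of all genes). Igfbp2, a binding protein of neural progenitors, was 117-fold above MEF and not called against the other NSC groups. Igfbp4, a binding protein that restrains the growth factors, stood at 14.63 and 14.67 in miPS-NSC, 12.07 and 12.15 in pNSC, 9.48 and 9.66 in fNSC and 8.87 and 9.15 in MEF. Igfbp5 stood at 13.71 and 13.66 in miPS-NSC, 11.75 and 11.84 in pNSC, 10.17 and 10.24 in fNSC and 13.97 and 13.95 in MEF, so that it was 6.42-fold above the other NSC groups and not called against MEF. The mRNA-binding protein Igf2bp3 was at least 56.4-fold below MEF, and Igf2r, the clearance receptor, 7.25-fold.

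Wnt and pluripotency genes moved in both directions. Wnt7a and Wnt7b, ligands made by neural progenitors, were at least 7.69-fold and at least 2.46-fold above MEF. Wnt7b stood at 7.55 and 7.53 in miPS-NSC, 11.74 and 11.76 in pNSC, 10.06 and 9.98 in fNSC and 4.87 and 4.82 in MEF, 10.1-fold below the mean of the other NSC groups. Wnt7a was 2.84-fold below it. Of 9 measured pluripotency genes 6 rose and 3 fell against MEF (24.2% of all genes rose and 17.1% fell). Esrrb, a nuclear receptor of pluripotent cells, stood at 10.23 and 10.36 in miPS-NSC, 10.24 and 10.35 in pNSC, 9.69 and 9.66 in fNSC and 5.06 and 4.99 in MEF, so it did not set miPS-NSC apart from the other NSC groups. Pou5f1, which encodes OCT4, stood at 6.94 and 6.71 in miPS-NSC, 6.02 and 5.98 in pNSC, 6.49 and 5.57 in fNSC and 5.50 and 5.45 in MEF, and Dppa5a at 6.36 and 6.36 in miPS-NSC against 5.35 and 5.24 in MEF. Both were only just above background in miPS-NSC, and the call of Dppa5a against MEF ended without the second MEF array (log2 difference 0.98). Myc was at least 6.73-fold above MEF and 3.01-fold above the other NSC groups. Klf4 was 7.18-fold below MEF and 1.64 above the other NSC groups on the log2 scale.

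Imprinted genes read from the paternal copy separated the NSC groups in their distance to MEF. Of 11 measured members 5 rose and 4 fell against MEF in miPS-NSC (median 0.812; 24.2% and 17.1% of all genes), against 0 higher and 7 lower in pNSC (median -4.256, -3.167 at bounds) and 5 higher and 4 lower in fNSC (median 0.666). The contrast with the mean of both other groups gave 8 calls upward and 1 downward in miPS-NSC (6.92% and 5.13% of all genes). For these genes that mean joins a group in which most were not detected with one in which most were. Against pNSC alone 8 were higher and 0 lower (median 4.043; 7.49% and 6.81% of all genes). Against fNSC alone 2 were higher and 2 lower (median 0.146; 8.3% and 5.42%). Impact, an inhibitor of the stress kinase GCN2, stood at 11.96 and 11.97 in miPS-NSC, 4.73 and 4.96 in pNSC, 10.58 and 10.52 in fNSC and 13.25 and 13.03 in MEF. Snrpn, a spliceosome component, stood at 12.89 and 12.85 in miPS-NSC, 5.15 and 5.06 in pNSC, 12.67 and 12.77 in fNSC and 12.01 and 12.10 in MEF. For Impact the miPS-NSC arrays lay between fNSC and MEF, and for Snrpn above both, whereas pNSC was not detected. Another Snrpn probe stood 1.10 above the mean of the other NSC groups on the log2 scale.

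Nap1l5, a nucleosome assembly protein, stood at 10.76 and 10.59 in miPS-NSC, 5.05 and 4.83 in pNSC, 9.78 and 9.65 in fNSC and 5.98 and 6.38 in MEF. Mest, of the hydrolase family, was 3.97-fold above MEF in miPS-NSC, at 11.13 and 11.60, with 13.21 and 13.63 in fNSC and 4.87 and 4.92 in pNSC. Mkrn3, a ubiquitin ligase, and Nnat, a proteolipid of developing brain, were 8.82-fold and at least 6.34-fold above MEF. Dlk1, a Notch-like ligand of progenitors, stood at 8.57 and 8.32 in miPS-NSC, 5.69 and 6.23 in pNSC, 5.77 and 5.23 in fNSC and 10.29 and 10.13 in MEF, detected on both arrays in miPS-NSC and MEF alone. Ndn and Igf2 went the other way: Ndn was detected in fNSC (9.42 and 9.72) and MEF but not in miPS-NSC or pNSC (4.95 and 5.09), and Igf2 was detected on both arrays in MEF alone. Of 13 measured maternally expressed genes 3 rose and 3 fell against MEF, and 1 was higher than in the other NSC groups, beside 24.2%, 17.1% and 6.92% of all genes.

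The remaining lists are given by their counts, to be read beside the 24.2% of all genes that rose and the 17.1% that fell. TGF-beta and BMP genes were higher in 5 and lower in 12 of 27 cases against MEF, integrins in 1 and 3 of 10, and cholesterol and lipid genes in 6 and 3 of 19. FGF, EGF and PDGF genes were higher in 6 and lower in 4 of 14 cases, Wnt genes in 7 and 6 of 18, and regional genes of midbrain, hindbrain and the Hox clusters in 4 and 2 of 10. Cadherins were higher in 4 of 6 cases, forebrain genes in 2 of 3, and neural crest genes in 3 of 4. The wider endothelial, macrophage, epithelial and muscle lists had 1 to 3 measured members each, which is too few to describe. Other probes moved further differences from MEF by over 1.5 times without a change of sign. On the log2 scale they gave -1.94 for Klf4, 2.16 for Nnat, 1.22 for Wnt7b, 2.34 for Map2, 2.84 for Sox2, 8.09 for Igfbp2, -4.23 for Cdkn1a, -3.25 and -3.87 for Ccng1 and -4.90 and -4.57 for Prrx1. Des, a muscle filament, had a log2 difference of -0.92 and was not called.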

How the data were processed

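RNA of the 4 cell groups was hybridised to 8 Illumina BeadChips, and groups follow the titles in the labels. Per the file headers, the deposited signal table gives the mean bead intensity and a detection p-value of 25697 probes on every array. GenomeStudio 2009.2 is named in the submitters' processing notes. The authors also deposited processed log2 values, used here as an alternative, for the 12421 probes whose detection p was below 0.05 on 4 or more arrays, as tested on the signal table. Symbols were read from the platform annotation of these probes. Of 11692 probes with 1 symbol, 11686 matched a gene ID in RefSeq (GRCm38.p6), and all other probes are unnamed here. The genome build used to design the probes is not given here.

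Background correction, quantile normalization and log2 transformation were done by neqc (R 4.3.3, limma 3.58.1 and data.table, version 1.17.8), with an offset of 16. Probes needed a detection p below 0.01 on both arrays of any group (12478 probes, 10958 with a gene). A gene was represented by its brightest probe, which gave 8107 genes, 2095 of them with more than 1 such probe. The linear model (lmFit, eBayes) used all 8 arrays and had 4 residual and 2.98 prior degrees of freedom. Two-sided p-values were adjusted by Benjamini-Hochberg across the 8107 genes. A call needed an adjusted p under 0.05, a difference of at least 2-fold and a brighter group detected on both arrays. A fold is given as "at least" if the dimmer group was undetected on 1 or both arrays, with each dim array set to the lowest detected signal or to its own value, whichever was higher. The fit was tested on simulated data.

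Named genes were the 12 largest calls each way against MEF, the 10 largest each way against the mean of fNSC and pNSC, the 10 largest of those on the MEF side of both other NSC groups, cell type markers, and up to 6 members with the largest differences of each of 35 lists. The comparison, the lists and these rules were chosen with earlier results of these data known. Alternatives were the authors' values, another normalization, another offset, other detection and probe rules, a block for the title ending, leaving out chromosomes 4 and 19 and leaving out each array in turn. A list is described by its counts and median beside those of all genes, with no test.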

Additional observations from a re-analysis of the deposited data

Results flagged for a closer look

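For 87 genes named above, the distance of miPS-NSC to MEF differed from the mean distance of fNSC and pNSC to MEF by the limma contrast between them (adjusted p under 0.05 and at least 2-fold, fitted over all 8107 genes). The values that follow are these log2 differences, positive where miPS-NSC was the higher, with 2 arrays per group. Against fNSC alone and pNSC alone, 66 of the 87 were called in the same direction. The other 21 were not called against 1 of these groups or differed from them in opposite directions: Anxa2, Apoe, Atp1b2, Fgf1, Gadd45a, Ldha, Mest, Mkrn3, Mmp14, Nap1l5, Ndn, Nnat, Notch1, Olig2, Pdgfra, Serpinf1, Snrpn, Thbs2, Tpi1, Twist1 and Twist2. Among matrix and mesenchymal genes they were Fbln2 6.16, Igfbp7 5.03, Thy1 4.87, Mgp 3.53, Col4a1 3.26, Col4a2 2.37, Htra1 2.85, Serpinh1 3.10, P4ha1 2.15, Plod1 1.92, Plod2 1.51, Mmp14 1.99, Spon1 1.82, Anxa2 3.03, Twist1 2.34, Thbs2 1.04 and Ncan 1.26 above the mean of the other NSC groups. Below that mean were Twist2 -1.12, Acta2 -1.64, Tpm1 -1.30, Timp1 -2.04, Ogn -2.63, Serpinf1 -1.48 and Pdgfra -2.25, and for Twist2, Serpinf1 and Pdgfra only the difference from pNSC was called. The Thbs2 difference fell to 0.98 without the second fNSC array and to 0.94 without the second pNSC array, which ends its call. In growth factor, metabolic and stress genes the differences were Igfbp4 3.81, Igfbp5 2.68, Eno2 4.62, Slc2a3 3.21, Pdk1 2.62, Hk2 1.93, Ldha 1.13, Tpi1 1.11, Ndrg1 4.40, Selenbp1 5.20, Agt 4.14, Cd40 4.28, Itm2a 4.27, Lcn2 2.88, Plvap 2.57, Fgf1 1.45 and Atp1b2 1.25. Genes below detection in miPS-NSC gave Dnajc15 -6.04, Slc25a20 -5.91, Mfsd2a -5.54, Aard -5.45, Slc50a1 -5.24, Flot2 -5.16, Gstm5 -5.12, Ddit4l -4.93, Phlda3 -4.64, Camk1 -4.62, Akr1e1 -4.52 and Hoxa7 -2.12. Cell cycle and p53 genes gave Cdkn2a 3.53, Cdkn2b 3.20, Cdkn1c 2.28, Gadd45a 1.88, Myc 1.59 and Klf4 1.64 on the higher side and Ccng1 -2.82, Trp53inp1 -2.50, Cdkn1a -1.63, Mcm3 -1.38 and Rrm2 -1.78 on the lower. Neural genes gave Apoe 1.05, Syt1 3.79, Gad1 2.71, Clu 2.64, Slc1a2 1.82 and En1 2.13 on the higher side and Wnt7b -3.34, Fabp7 -2.65, Hes5 -2.0, Wnt7a -1.51, Notch1 -1.19, Nrarp -1.16, Nes -1.14 and Olig2 -1.05 on the lower. The Olig2 difference lay just past 2-fold, and its call ended without the first fNSC array (-0.94), the first pNSC array (-0.99) or the first miPS-NSC array (-0.99). Imprinted genes gave Impact 4.27, Snrpn 3.95, Nap1l5 3.34, Dlk1 2.71, Mkrn3 2.27, Mest 2.21, Nnat 1.59 and Ndn -2.13, and Xist, which was not detected in miPS-NSC or MEF, gave -3.10. The Apoe call ended without the second fNSC array (0.90). Other probes gave smaller differences for Fbln2 (3.41), Cd40 (3.09 and 0.89), Snrpn (1.10), Mest (1.15), Klf4 (0.90), Nnat (0.92), Cdkn2a (2.79), Slc25a20 (-2.20), Ogn (-0.48) and Acta2 (-0.04 to -0.70).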

How the results depend on the processing

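Signs of the called gene results held under every alternative run, and call counts moved with the background step. Over 218 called values of named genes, 195 kept their call under all alternatives and 23 lost it under at least 1. With the authors' processed values 2055 genes were called between miPS-NSC and MEF (1053 higher), 2177 between pNSC and MEF (1130 higher), 2138 between fNSC and MEF (1084 higher), and 465 between miPS-NSC and the mean of the other NSC groups (283 higher, 182 lower). With quantile normalization and no background correction the counts were 2084 (1172 higher, 912 lower), 2204 (1247 higher), 2186 (1210 higher) and 445 (269 higher, 176 lower). The median over all genes of miPS-NSC minus MEF was 0.061 and 0.146 under these 2 settings, against 0.217, and of the calls 51.2% and 56.2% were higher, against 58.6%. The second of these settings leaves background signal in the values by construction, and the cause of the lower counts with the authors' values was not tested. Against MEF, Pou5f1, Dppa5a, Olig2, Fabp7, Plod1, Mcm3 and Uty were no longer called under either, nor Wnt7b with the authors' values. Against the other NSC groups the calls of Acta2, Timp1, Hoxa7, Thbs2, Twist2, Olig2, Mmp14, Nrarp, Klf4, Nnat and Apoe ended under both (Twist2 at -0.38 and -0.41, Klf4 at 0.70 and 0.67), and that of Serpinf1 without background correction. With an offset of 50 the calls of Pou5f1 and Dppa5a against MEF and of Thbs2, Twist2, Olig2 and Apoe against the other NSC groups ended. With all kept probes, named or not, an alternative chosen after seeing the data, 2882 probes were higher and 2690 lower in miPS-NSC (51.7% higher), and of the unnamed probes 205 were higher and 821 lower.

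The root mean square distance to MEF of miPS-NSC, pNSC and fNSC kept its order under every alternative. It was 1.1418, 1.1668 and 1.1833 with the authors' values, 1.1427, 1.1665 and 1.1828 without background correction, 1.4555, 1.4774 and 1.4986 with an offset of 50, 1.6418, 1.6585 and 1.6854 with detection on 1 array, 1.6278, 1.6443 and 1.6708 without a detection filter, and 1.6277, 1.6441 and 1.6743 with the mean of a gene's probes. Without chromosomes 4 and 19 it was 1.677 for miPS-NSC and 1.6947 for pNSC. Leaving out each array in turn gave 1.6587 to 1.6712 for miPS-NSC, 1.676 to 1.689 for pNSC and 1.7058 to 1.7137 for fNSC, and 3318 to 3410 calls between miPS-NSC and MEF and 972 to 1027 between miPS-NSC and the other NSC groups. Uncalled values that changed sign over these fits were Cdkn2a (-0.068 to 0.194), P4ha1 (-0.36 to 0.0011) and Rrm2 (-0.78 to 1.11, where another probe became the brightest) against MEF, and Igf2 (-0.200 to 0.034) and Des (-0.40 to 0.15) against the other NSC groups. With the mean of its probes, the Acta2 difference from the other NSC groups (-0.61) and that of Tpi1 (0.96), and the differences from MEF of Nes (0.91) and Pfkl (0.76), were under 2-fold, and the uncalled difference of Bbc3 from MEF (-0.18) became 0.45. With the title ending as a replicate block, 3351 genes were called between miPS-NSC and MEF and 977 between miPS-NSC and the other NSC groups, with no named gene changed. The endings did not pair the arrays: the deviations of arrays with the same ending correlated at -0.00173 to 0.0709 across genes.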

Other observations

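Chromosomes were not alike in the contrast of miPS-NSC with the mean of the other NSC groups. On chromosome 4 it gave 59 higher and 15 lower calls with a median log2 difference of 0.29 over 493 genes. On chromosome 19 it gave 16 higher and 27 lower calls with a median of -0.238 over 290 genes. Over all genes 6.92% were higher and 5.13% lower, with a median of -0.026. Against MEF the medians of the same chromosomes in miPS-NSC were 0.181 and 0.248, near the 0.217 of all genes. Calls against MEF were also counted without chromosomes 4 and 19. Higher calls went from 1964 to 1787 in miPS-NSC, 2057 to 1921 in pNSC and 2047 to 1816 in fNSC. Lower calls went from 1385 to 1251, 1422 to 1212 and 1383 to 1268 in the same groups. Which group set either chromosome apart was not tested. On the X chromosome 81 of 269 genes were higher and 33 lower in miPS-NSC than in MEF (median 0.367), beside 24.2% and 17.1% of all genes. Against the mean of the other NSC groups 17 of the 269 were higher and 18 lower, near the 6.92% and 5.13% of all genes.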
